A study of Mus musculus with 6 samples.

Results

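The cytosolic ribosomal protein genes were taken from the table of all genes by their symbols, which are Rpl or Rps with a number and, for some, a letter or the ending of a paralog, together with Rplp0, Rplp1, Rplp2 and Rpsa. Pseudogene symbols with the ending -ps and the Rps6k kinases were left out. The rule found 90 of 55364 genes, of which 54 belong to the large and 36 to the small subunit, and it used no measured value. The RNA was from BDF1 x BDF1 morulae, obtained by in vitro fertilization of oocytes from females of 8 to 12 weeks with sperm from males of 10 to 12 weeks. For *Yy1* KD, zygotes were injected with an siRNA against *Yy1* at 10 µM between 2 and 3 h after insemination. The paper's methods give no separate siRNA, concentration or time for control KD. The embryos were cultured in KSOM until collection at 64 h. Each group had 3 libraries, and each library was made from a pool of 10 whole morulae of unknown sex. The values are averages over all cells of several embryos. The siRNA against *Yy1* was given before the first division and leaves some *Yy1* RNA. Nothing in the sources used here says whether the pools came from separate fertilizations, so that p-values measure the spread between these pools.

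Each ribosome is built from 1 small and 1 large subunit, in which ribosomal RNA is held in shape by the ribosomal proteins. The small subunit reads the mRNA and the large subunit joins the amino acids and lets the growing peptide out through a tunnel. Ribosomal protein mRNAs are among the most abundant in growing cells, and most of them start with a run of pyrimidines, the terminal oligopyrimidine tract, through which their translation is controlled together. In the mouse embryo the ribosomes left by the oocyte are replaced by newly made ones during cleavage. YY1 is a zinc finger transcription factor that binds many promoters, and a match to its motif is known in several ribosomal protein promoters.

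Promoter sequences show which features these genes share. RefSeq promoters on GRCm38.p6, 250 bases before to 50 bases from the annotated start, were matched by symbol for 65 of the 90 genes, with 77 promoters in all. A run of at least 6 C or T that touched the 10 bases on either side of the start was found in 39 of the 65 genes (60%), against 32.7% of all 27025 genes with a promoter and 33.2% of the 9767 tested genes with a promoter. The windows of 5 genes that were higher in *Yy1* KD morulae are shown because their runs can be read directly. Each window holds 60 bases before the annotated start and 20 bases from it on, written 5′ to 3′ on the strand of the gene, with the run in capitals.
Rpl35, chr2:39005112-39005191, minus strand: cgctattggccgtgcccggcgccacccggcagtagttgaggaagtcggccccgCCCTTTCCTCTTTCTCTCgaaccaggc
Rpl7a, chr2:26910747-26910826, plus strand: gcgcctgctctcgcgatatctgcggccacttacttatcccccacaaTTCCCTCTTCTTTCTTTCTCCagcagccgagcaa
Rpl34, chr3:130730318-130730397, minus strand: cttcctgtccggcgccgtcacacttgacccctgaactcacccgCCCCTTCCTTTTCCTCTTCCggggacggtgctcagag
Rpl18, chr7:45718011-45718090, plus strand: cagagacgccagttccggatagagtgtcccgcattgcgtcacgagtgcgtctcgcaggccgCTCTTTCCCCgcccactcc
Rps6, chr4:86857348-86857427, minus strand: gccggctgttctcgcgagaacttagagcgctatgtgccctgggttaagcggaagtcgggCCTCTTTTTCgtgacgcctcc
The runs are between 10 bases long in Rpl18 and Rps6 and 21 bases long in Rpl7a. A run was found in 5 of the 9 called genes with a promoter (55.6%) and in 34 of the 56 that were not called (60.7%). *Rpl7l1*, *Rpl9*, *Rps15* and *Rps3*, which were also called higher, have no run of this length at their annotated start, and the windows of the first and the last of them are shown without capitals for comparison.
Rpl7l1, chr17:46782637-46782716, minus strand: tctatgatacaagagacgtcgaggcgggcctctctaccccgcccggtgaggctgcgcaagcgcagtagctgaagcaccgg
Rps3, chr7:99483690-99483769, minus strand: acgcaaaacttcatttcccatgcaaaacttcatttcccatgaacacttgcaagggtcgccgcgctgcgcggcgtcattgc
An annotated start can lie some bases from the start that a cell uses, so a missing run says only that these letters are not in the window.

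The YY1 consensus, AANATGGC or its complement GCCATNTT on the other strand, was found in the promoters of 13 of the 65 genes (20%), against 6.96% of all genes with a promoter and 10.4% of the tested ones. It was present in 2 of the 9 promoter-matched genes that were called higher in *Yy1* KD, *Rpl34* and *Rpl7l1*, and in 11 of the 56 that were not called. The match of *Rpl7l1* begins at position 22 after the annotated start, so it lies in transcribed sequence. That of *Rpl34* begins at -103 or -42, depending on which annotated start is used. The bases around these matches, with the consensus in capitals, are shown for both called genes and for *Rps15a*, in which the match lies at the start itself.
Rpl34, chr3:130730411-130730462, minus strand: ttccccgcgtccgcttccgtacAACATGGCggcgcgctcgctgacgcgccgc
Rpl7l1, chr17:46782627-46782657, minus strand: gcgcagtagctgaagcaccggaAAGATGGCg
Rps15a, chr7:118116123-118116174, minus strand: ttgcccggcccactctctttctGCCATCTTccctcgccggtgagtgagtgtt
The core CCGGAAG, or CTTCCGG on the other strand, which is bound by ETS factors, was in 26 of the 65 genes (40%), against 9.93% of all genes and 20.6% of the tested ones. A match is a description of the letters, and binding at these promoters was not analysed here.

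Of the 90 genes, 88 reached 1 TPM in 3 or more of the 6 libraries and were tested, 53 of the large and 35 of the small subunit. The 2 genes that were not tested are *Rpl3l*, a paralog of *Rpl3* known from muscle, with a mean of 0.540 TPM, and *Rps12l1*, with a mean of 0.605 TPM. A TPM is the number of read pairs on a gene per exon length, scaled so that each library sums to 1000000. Read pairs on genes, recovered from TPM and exon length, were between 12519597 and 24417789 in control KD and between 11793509 and 18674188 in *Yy1* KD libraries. *Yy1* itself was at 96.0, 100.2 and 89.8 TPM in control KD and at 8.73, 8.90 and 8.32 TPM in *Yy1* KD, a log2 fold change of -3.32 (limma adjusted p = 6.71e-05; exact permutation p = 0.1, the smallest that 3 against 3 libraries can give). All 14 morula markers were detected in every library and summed to between 7664 and 8487 TPM, with no separation of the groups. The largest part of that sum was *Dppa3*, at 4909, 4329 and 4379 TPM in control KD and 4876, 4713 and 4704 TPM in *Yy1* KD. Of the 14 genes 11 had a log2 fold change below 0, and 4 were lower in *Yy1* KD without overlap. Of all tested genes 17.2% were lower without overlap. limma called 1 lower, *Tfap2c* (-0.54, limma adjusted p = 0.0174), and 0 higher (3 lower and 0 higher at an unadjusted p under 0.05, and the same numbers by limma-voom). Over all tested genes limma called 4.20% lower and 1.92% higher. Of 11 markers of the cumulus and granulosa cells that surround the oocyte, 3 were tested and limma called none (also 0 at an unadjusted p under 0.05 and 0 by limma-voom). Their sum was between 12.01 and 15.1 TPM. *Has2*, *Ptx3*, *Tnfaip6*, *Cyp19a1* and *Fshr* were listed at 0 in all libraries. *Amhr2* was detected at 10.02, 8.16 and 8.56 TPM in control KD and at 7.15, 8.52 and 8.61 TPM in *Yy1* KD, and *Inhbb*, *Star* and *Foxl2* were detected in every library at up to 3.93 TPM.

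In control KD morulae the ribosomal protein genes took 7.02%, 6.99% and 6.65% of the TPM of the libraries. Of the 100 genes with the highest mean TPM, 25 were ribosomal protein genes. The most abundant member was *Rplp1*, an acidic protein of the stalk that recruits the factors of translation, at 6612, 6526 and 6219 TPM in control KD. It was followed in the large subunit by *Rpl41*, which encodes the smallest ribosomal protein, at 3325, 3661 and 3110.4 TPM, and by *Rpl8* at 2512, 2539 and 2512 TPM. In the small subunit *Rps23*, a protein of the decoding center, was at 2132, 2076 and 2041 TPM, *Rps3a1* at 2169, 1956 and 2078 TPM and *Rps6*, the target of the S6 kinases, at 1462, 1513 and 1449.9 TPM. *Rps23* and *Rps3a1* do not differ beyond their spread. The mean TPM of the tested genes ranged from 11.6 to 6961, with a median of 550.2, and without the 11 tested paralogs described below the lowest mean was 110.4 TPM. *Rpl22l1* was the lowest of the tested members and *Rps3a3*, at a mean of 26.9 TPM, the lowest of the small subunit.

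**Figure D1:**
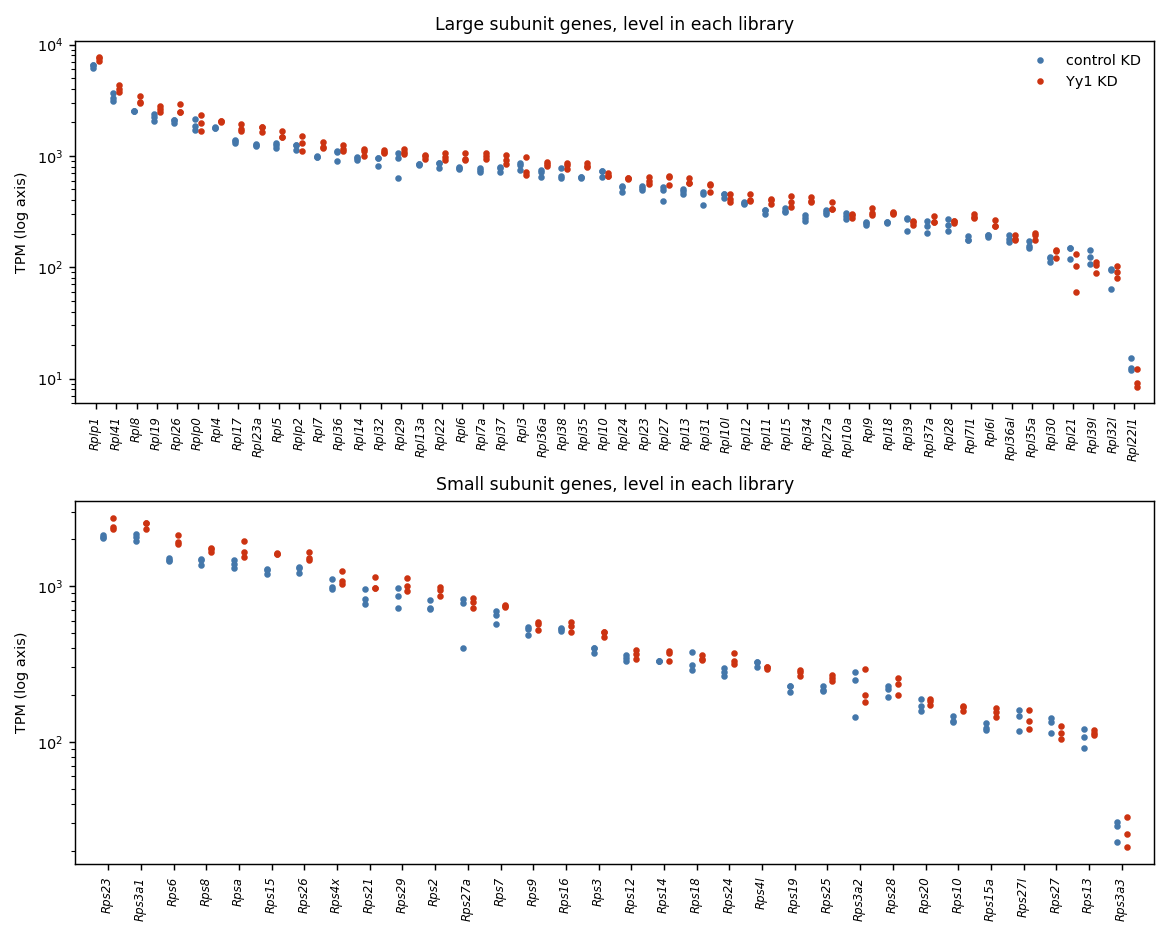
TPM of tested ribosomal protein genes in the 3 control KD (blue) and 3 *Yy1* KD (red) libraries, on a log axis, ordered by mean TPM within the large subunit (top) and the small subunit (bottom); each point is 1 library. The levels span from 6961 TPM on average for *Rplp1* to 11.6 TPM for *Rpl22l1*, and the red points lie above the blue points in most of the genes shown.

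Most ribosomal protein mRNAs were moderately more abundant after *Yy1* KD than after control KD. The log2 fold change was above 0 for 78 of the 88 tested genes, with a median of 0.26 and quartiles of 0.11 and 0.31, against a median of -0.02 over all 17353 genes tested and 0.02 over the 1528 genes with a mean of at least 100 TPM. By limma with Benjamini-Hochberg adjustment over all tested genes (adjusted p under 0.05), 14 members were called higher (15.9%), against 1.92% of all tested genes and 5.89% of the genes with a mean of at least 100 TPM. No member was called lower, against 4.20% of all tested genes. At an unadjusted limma p under 0.05, 51 members were higher and 0 lower, against 1623 higher and 2500 lower of all 17353 tested genes. Of the genes with a mean of at least 100 TPM, 323 were higher and 258 lower by the same measure. limma-voom on recovered read pairs called 46 members higher and 0 lower, against 864 (5.10%) and 1184 of the 16931 genes it tested. In the other settings with all libraries between 74 and 80 members had a log2 fold change above 0. In bulk RNA of whole embryos, fewer cells of a type and less RNA in each cell cannot be told apart. Because TPM is a share of the library, a higher share of these mRNAs cannot be told apart from a lower total of the others. All 3 *Yy1* KD values lay above all 3 control KD values for 53 members (60.2%), against 12.9% of all tested genes and 24.8% of the genes with a mean of at least 100 TPM. The opposite order, which 17.2% of all tested genes showed, was found for *Rps4l* alone among the members, and 34 members overlapped.

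Both subunits showed the difference. In the large subunit 10 of 53 genes (18.9%) and in the small subunit 4 of 35 genes (11.4%) were called higher, against 1.92% of all tested genes. The medians of the log2 fold change were 0.26 and 0.24. Higher without overlap were 35 (66.0%) and 18 genes (51.4%), against 12.9% of all tested genes. The number of calls changed with the setting: against 14, limma-voom called 30 genes of the large and 16 of the small subunit, and 4 members were called after quantile normalization and 2 with no filter on low values. With 1 library left out, 0 members were called without control KD 3, 1 without control KD 1, control KD 2 or *Yy1* KD 2, and 3 without *Yy1* KD 1 or *Yy1* KD 3. The median stayed between 0.20 and 0.28.

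**Figure D2:**
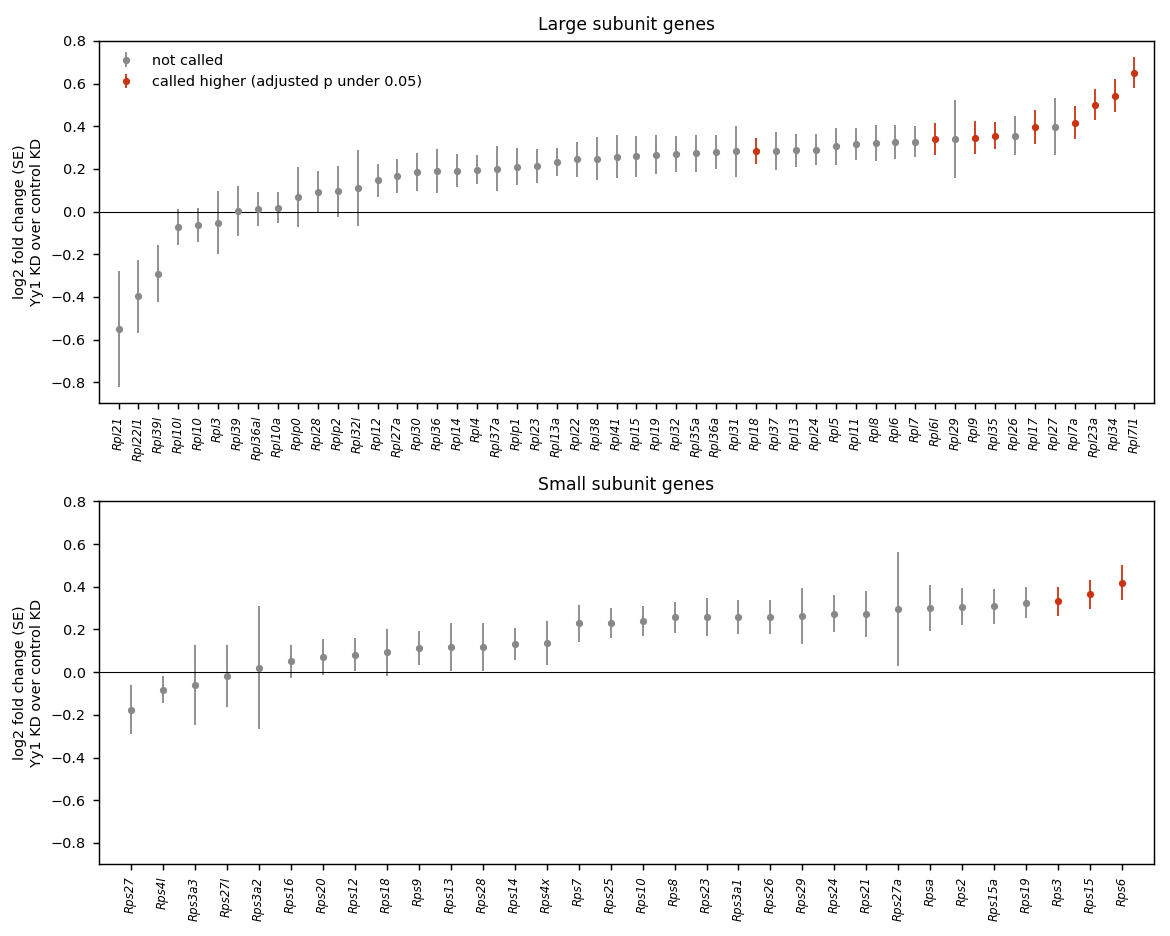
log2 fold change (*Yy1* KD over control KD, on log2(TPM + 1)) of tested ribosomal protein genes with the standard error of limma, ordered within the large subunit (top) and the small subunit (bottom); red points were called higher at an adjusted p under 0.05. Most points lie above 0, in a range from -0.55 for *Rpl21* to 0.65 for *Rpl7l1*, and the genes below 0 were not called.

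The largest difference was found for *Rpl7l1*, a paralog of *Rpl7* whose yeast relative acts in the assembly of the large subunit. *Rpl7l1* (ENSMUSG00000063888.7) lies on the minus strand of chromosome 17 from 46773907 to 46782672 (GRCm38). Its level was 192, 175 and 176 TPM in control KD and 299, 275 and 282 TPM in *Yy1* KD, with means of 181 ± 9.51 and 285 ± 12.8 TPM (SD, n = 3). The lowest *Yy1* KD pool was thus well above the highest control pool, with a log2 fold change of 0.65 (standard error of 0.07, limma adjusted p = 0.0109). *Rpl7l1* shares only 1.68% of its 100-nt windows with transcripts of other genes. It was called in each of the other settings with all libraries and in 5 of the 6 fits with a library left out; without control KD 3 its log2 fold change was 0.63 (limma adjusted p = 0.0515, in a range from 2.29e-04 to 0.0515).

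*Rpl34*, on chromosome 3 from 130726831 to 130730398, was at 294, 259 and 278 TPM in control KD and at 427, 389 and 394 TPM in *Yy1* KD (log2 fold change 0.54, standard error 0.08, limma adjusted p = 0.0163). This gene too has few shared windows (2.82%), and its groups were separated by more than their spread. Of all members 15.9% were called higher, with a median log2 fold change of 0.26, against 1.92% of all tested genes called higher. Among the proteins around the exit of the peptide tunnel, where the signal recognition particle and other factors meet the new chain, 3 of 8 genes were called higher and the median log2 fold change was 0.32. *Rpl23a*, the main docking protein of that site, was at 1268, 1225 and 1241 TPM in control KD and at 1817, 1818 and 1652 TPM in *Yy1* KD (log2 fold change 0.50, limma adjusted p = 0.0178). *Rpl23a* shares 80.04% of its windows with transcripts of other genes. *Rpl35*, its neighbor at the exit, was at 632, 652 and 645 TPM against 857, 801 and 811 TPM (0.36, limma adjusted p = 0.0302). *Rpl17* was at 1370.0, 1311 and 1392 TPM against 1924, 1762 and 1679 TPM (0.40, limma adjusted p = 0.0394). These 3 genes had no overlap between the groups, and neither had *Rpl19*, *Rpl22*, *Rpl26* and *Rpl31*, which were not called. The same order was found in 60.2% of all members and 24.8% of the genes with a mean of at least 100 TPM. *Rpl39*, whose protein lines the tunnel wall, was the exception, at 271, 278 and 209.8 TPM against 261, 241 and 253 TPM.

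Other called genes of the large subunit included *Rpl7a*, *Rpl9*, *Rpl18* and the paralog *Rpl6l*. *Rpl7a*, whose introns host small nucleolar RNAs, was at 773, 717 and 749 TPM in control KD and at 1066, 994 and 934 TPM in *Yy1* KD (log2 fold change 0.42, limma adjusted p = 0.0318). It shares 73.5% of its windows with transcripts of other genes. *Rpl18* had the smallest change of the called genes, from 255, 253 and 249 TPM to 314, 301 and 307 TPM (0.28, limma adjusted p = 0.0438), and its pools hardly differed within a group. The level of *Rpl9* was 257, 238 and 247 TPM against 341, 297 and 308 TPM (0.35, limma adjusted p = 0.0492). This was close to the threshold. Just outside it were *Rpl7*, at 986, 1005 and 982 TPM against 1336, 1189 and 1213 TPM (0.33, limma adjusted p = 0.05004), and *Rps19*, at 228, 229 and 208 TPM against 287, 265 and 282 TPM (0.32, limma adjusted p = 0.0504).

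In the small subunit *Rps6*, *Rps15* and *Rps3* were among the genes called higher. *Rps6* rose to 2143, 1925 and 1860.4 TPM (0.42, limma adjusted p = 0.0352), and it shares 83.6% of its windows with transcripts of other genes. *Rps15*, a protein of the subunit head, went from 1275, 1295 and 1201 TPM to 1627, 1619 and 1605 TPM (0.36, limma adjusted p = 0.0325), and the 3 *Yy1* KD pools were nearly equal. *Rps3*, at the entry of the mRNA channel, went from 403, 399.9 and 374 TPM to 505, 505 and 472 TPM (0.33, limma adjusted p = 0.0404) and shares none of its windows with another gene. *Rps2*, beside it at the entry, had a log2 fold change of 0.31 and *Rps9* one of 0.11. Neither was called.

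*Rpl5* and *Rpl11*, which bind the 5S RNA and can also bind MDM2, had log2 fold changes of 0.31 and 0.32, and in both the groups did not overlap (limma adjusted p = 0.0881 and 0.0577). For the groups that follow, limma called 15.9% of all 88 tested members and 1.92% of all tested genes higher. At an unadjusted p under 0.05, 51 of the 88 members were higher, and limma-voom called 46. Groups this small cannot be set apart from the other members by having 0 calls. Of the 4 stalk genes limma called none, with 1 under an unadjusted p of 0.05 and 1 called by limma-voom. Within the stalk *Rplp1* was at 7710.3, 7107 and 7592 TPM in *Yy1* KD, above every control pool (log2 fold change 0.21). *Rpl12*, at the base of the stalk, had a log2 fold change of 0.15 with no overlap, while *Rplp0* and *Rplp2* had 0.07 and 0.10 with overlapping groups. *Rplp0* varied widely within the groups, at 1841, 2141 and 1704 TPM against 2313, 1683 and 1989.6 TPM. At the exit of the mRNA channel limma called 0 of 5 genes, with 2 under an unadjusted p of 0.05 and 2 called by limma-voom. *Rps26* and *Rpsa* had log2 fold changes of 0.26 and 0.30 without overlap, and *Rps14* and *Rps28* had 0.13 and 0.12 with overlap. The 9 genes listed here that are mutated in Diamond-Blackfan anemia, an inherited failure of red cell production, had a median of 0.27. In these 9, among them *Rps19*, *Rps24*, *Rps26*, *Rpl5*, *Rpl11* and *Rpl35a*, the 3 *Yy1* KD values were above the control values. This order was found in 60.2% of all members and 12.9% of all tested genes. limma called none of the 9, although all 9 had an unadjusted p under 0.05, and limma-voom called 7. These counts depend on the listing, which leaves out other genes known from this disease: *Rpl18* and *Rpl35* were called higher, and *Rps27*, *Rps28* and *Rps29* overlapped between the groups. The 4 genes on the X chromosome, *Rpl10*, *Rpl36a*, *Rpl39* and *Rps4x*, had a median of 0.07. Of these limma called none, with 1 under an unadjusted p of 0.05 and 1 called by limma-voom.

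Of the members 10 were below 0, and their spread differed. *Rpl21* had the lowest log2 fold change, -0.55, with 148, 149 and 118 TPM in control KD and 104, 131 and 60.4 TPM in *Yy1* KD (standard error 0.27, limma adjusted p = 0.279). A single pool, *Yy1* KD 3, was far below the other five. *Rpl22l1* and *Rpl39l* followed at -0.40 and -0.29. In the small subunit the lowest were *Rps27* at -0.18, *Rps4l* at -0.08 and *Rps3a3* at -0.06. *Rps27*, a zinc finger protein of the subunit, was at 142, 135 and 113 TPM against 104, 127 and 114 TPM. *Rps4l* was at 303, 323 and 324 TPM against 293, 303 and 301 TPM, a separation of the groups that is small in size (limma adjusted p = 0.482).

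Several ribosomal protein genes have a paralog with its own symbol, and 11 of these paralogs were tested. Their median log2 fold change was -0.02, with 5 above and 6 below 0 (of the latter, *Rps27l* and *Rps3a3* were above 0 after quantile normalization), and 2 of the 11 were called higher, *Rpl7l1* and *Rpl6l*. The other 77 members had a median of 0.26, with 73 above 0 and 12 called. The medians were not compared by a test. The share called higher was 18.2% of the paralogs and 15.6% of the other members, against 1.92% of all tested genes. The share of each paralog in the summed TPM of its pair was compared for 11 pairs by two-sided exact permutation tests of the log2 ratio, in which the smallest p is 0.1, so that no pair could pass 0.05. For *Rpl7l1* the share of the pair with *Rpl7* was 15.5% ± 0.760 (SD, n = 3) in control KD and 18.6% ± 0.294 in *Yy1* KD, a difference in the log2 ratio of 0.32 (exact p = 0.1, adjusted p = 0.275 over the 11 pairs). The share was higher in each *Yy1* KD pool than in every control pool.

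In 3 pairs the paralog had a lower share in each *Yy1* KD pool than in every control pool (exact p = 0.1 and adjusted p = 0.275 for each). *Rpl22l1*, which can stand in for *Rpl22*, was at 15.2, 12.5 and 12.03 TPM against 12.1, 8.41 and 9.18 TPM. Its share went from 1.57% ± 0.179 to 0.991% ± 0.141 (difference in the log2 ratio -0.64). *Rpl39l*, best known from the testis, was at 124, 142 and 107 TPM against 112, 104 and 88.2 TPM. Its share went from 33.0% ± 1.41 to 28.7% ± 2.45 (-0.30). *Rpl36al* was at 193, 180.1 and 170.0 TPM against 193, 179 and 176 TPM, almost the same in both groups, while *Rpl36a* was at 751, 644 and 715 TPM against 889, 848 and 819.7 TPM. The share of *Rpl36al* went from 20.5% ± 1.32 to 17.6% ± 0.230 (-0.27). In the first of these pairs *Rpl22* was at 859, 775 and 858 TPM against 1053, 979 and 921 TPM.

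The remaining pairs overlapped. *Rpl10l*, a retrogene of the X-linked *Rpl10* that takes over in male meiosis, held 38.4% ± 0.609 of its pair in control KD and 38.2% ± 1.18 in *Yy1* KD (exact p = 1.0). *Rpl10l* itself was at 450.4, 415 and 451 TPM against 456, 412 and 385 TPM. *Rps27l*, a target of p53, held 51.8% ± 0.971 and 54.6% ± 5.09 of its pair with *Rps27* (exact p = 0.7). The spread in *Yy1* KD came from the pool *Yy1* KD 1 at 60.4%. For *Rps4l* with *Rps4x* the shares were 23.8% and 21.2% (exact p = 0.3), and for *Rpl32l* with *Rpl32* they were 8.50% and 7.69% (exact p = 0.3). The paralogs that resemble their parents most in sequence are uncertain, since the settings given for the counting of genes do not include read pairs that align at several places. *Rps12l1*, which was not tested, shares 100% of its windows with *Rps12*, so its low level is uncertain too. *Rps3a2* shares 53.4% of its windows with *Rps3a1*, *Rpl6l* 45.7% with *Rpl6* and *Rps3a3* 18.4% with *Rps3a1*. *Rpl6l* was at 187, 196 and 196 TPM against 264, 234 and 236 TPM (log2 fold change 0.34, limma adjusted p = 0.0483). It held 19.9% of its pair in control KD and 20.04% in *Yy1* KD (exact p = 0.9). *Rpl6* itself, at 780.1, 789 and 763 TPM against 1068, 915 and 948 TPM, had a log2 fold change of 0.33 (limma adjusted p = 0.0625). *Rps3a2* held 9.79% and 8.29% (exact p = 0.7) and *Rps3a3* 1.31% and 1.05% (exact p = 0.2) of their pairs with *Rps3a1*. In the annotation used here 6 members, *Rpl6l*, *Rpl32l*, *Rps3a2*, *Rps3a3*, *Rps4l* and *Rps12l1*, are processed pseudogenes, and the other 84 are protein-coding genes.

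**Figure D3:**
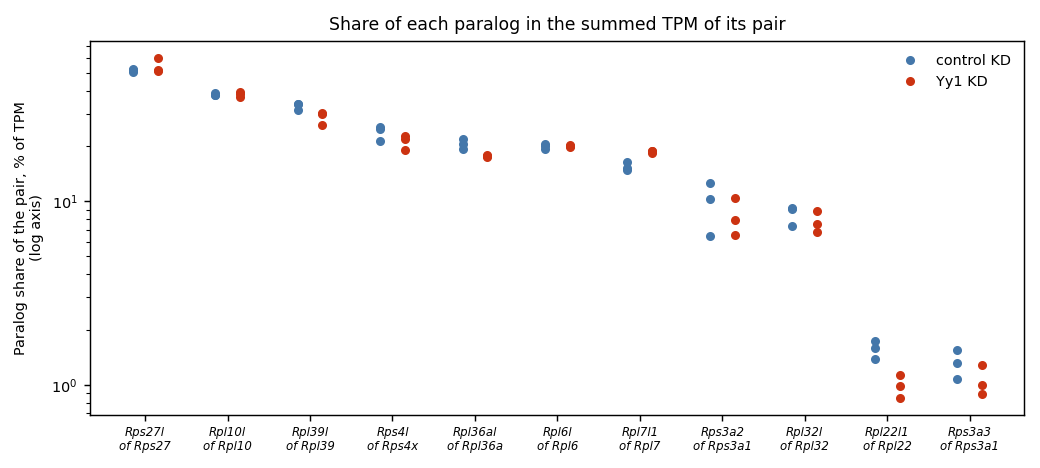
Share of each paralog in the summed TPM of its pair, in percent on a log axis, for the 11 tested pairs; each point is 1 library (blue control KD, red *Yy1* KD). The red points of *Rpl7l1* lie above the blue ones, those of *Rpl22l1*, *Rpl36al* and *Rpl39l* lie below them, and the groups of the other pairs overlap.

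The sum over all members shows the size of the difference in the whole RNA pool. The members summed to 70234, 69915 and 66508 TPM in control KD and to 87045, 80693 and 78424 TPM in *Yy1* KD. Their share of the library was 6.89% ± 0.206 (SD, n = 3) and 8.21% ± 0.447, which is 19.1% higher in *Yy1* KD, and the groups did not overlap. The large subunit genes were 19.1% and the small subunit genes 19.2% higher. The ratio of the large to the small sum was 1.99 ± 0.0526 in control KD and 1.99 ± 0.0217 in *Yy1* KD. The sum without *Rplp1* was 19.5% higher.

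**Figure D4:**
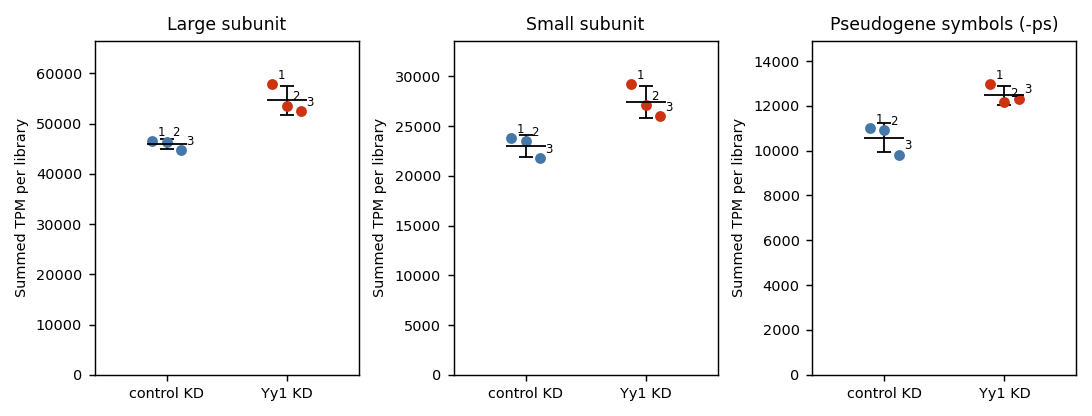
Summed TPM of the large subunit genes, the small subunit genes and the ribosomal protein pseudogene symbols in each library (points, with the replicate number), with the mean and SD of each group (lines, n = 3) and each axis starting at 0. In all 3 panels the 3 *Yy1* KD pools lie above the 3 control KD pools, and *Yy1* KD 1 is the highest.

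The members moved together between pools of the same group as well. The median deviation of the 88 genes from their own means over the 6 libraries was -0.08, -0.09 and -0.18 on the log2 scale in control KD 1, 2 and 3 and 0.20, 0.10 and 0.04 in *Yy1* KD 1, 2 and 3. Over the genes with a mean of at least 100 TPM this median was between -0.04 and 0.03 in every library. *Yy1* KD 1 held the highest value of its group for 68 of the 88 members and *Yy1* KD 3 the lowest for 57. Control KD 3 held the lowest value of its group for 58. Those 3 pools differed in depth, with 18674188, 11793509 and 18109905 read pairs. The part of depth in this order was not tested. The nearest pools of opposite groups in this measure were *Yy1* KD 3 and control KD 1. Without *Yy1* KD 1 the median log2 fold change of the members was 0.20, and without control KD 3 it was 0.20, with 73 and 72 of 88 genes above 0.

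**Figure D5:**
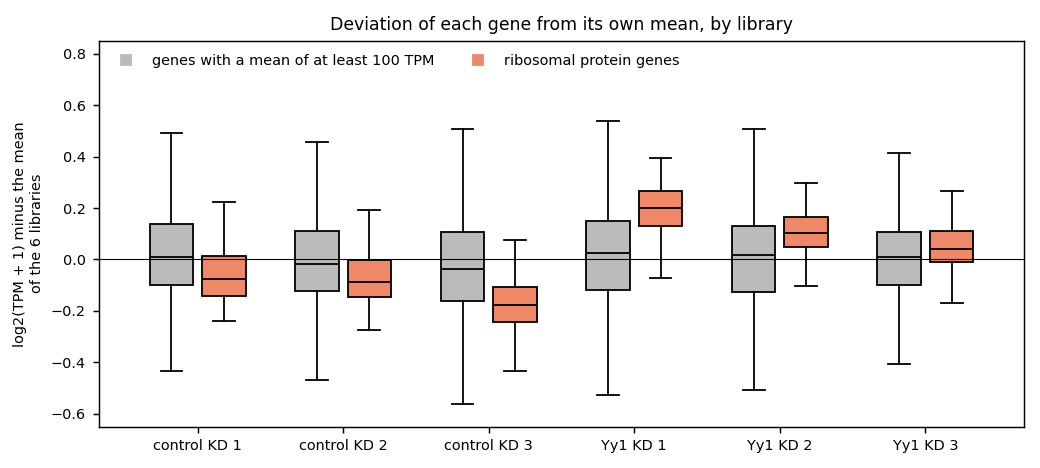
Deviation of log2(TPM + 1) of each gene from its own mean over the 6 libraries, for genes with a mean of at least 100 TPM (grey) and for the tested ribosomal protein genes (orange); boxes are quartiles with the median, and whiskers reach to the farthest value within 1.5 times the box. The medians of the ribosomal protein genes are -0.08, -0.09 and -0.18 in control KD and 0.20, 0.10 and 0.04 in *Yy1* KD, while those of the grey boxes stay near 0.

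Ribosomal protein mRNAs have many processed pseudogenes, to which their reads can also align. The tested members shared a median of 29.7% of their 100-nt windows with transcripts of other annotated genes, from 0 up to 84.4% in *Rpl10*. The median log2 fold change was 0.24 in the 22 members that share under 10% of windows (6 called), 0.25 in the 43 members that share 10% to 50% (4 called) and 0.27 in the 23 members that share at least 50% (4 called). Spearman's rho with the log2 fold change, across the 88 genes, which are not independent and share their libraries, was 0.09 for the share of windows. It was higher for the number of other genes that share windows (0.29) and for the number of pseudogene symbols of the member (0.30), and the part of these copies in the difference was not tested. Of the 319 symbols of pseudogenes 160 were tested, and the summed TPM of the pseudogene symbols was 18.03% higher in *Yy1* KD, close to the 19.1% of the members. Of the tested pseudogenes 3 (1.88%) were called higher and 0 lower, against 1.92% and 4.20% of all tested genes. Their median log2 fold change was 0.18. At an unadjusted limma p under 0.05, 22 were higher and 0 lower, and limma-voom called 6 and 0. All 3 *Yy1* KD values lay above all 3 control KD values for 12.5% of the tested pseudogenes, against 12.9% of all tested genes. The 3 called higher were *Rpl23a-ps3*, *Rpl23a-ps4* and *Rpl15-ps6*. Of these 3, 2 belong to *Rpl23a*, which shares 80.04% of its windows. *Rpl23a-ps3* was at 153, 154 and 162 TPM against 211, 217 and 199.5 TPM (log2 fold change 0.42, limma adjusted p = 0.0232). The levels of copies this similar are uncertain.

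Strand was not used in the counting, and 40 of the 90 members share exonic sequence with another annotated gene. In 17 of them that gene has the symbol of a small nucleolar RNA, such as Snora or Snord. Overlapping genes with a Gm symbol were not sorted by type, so 17 is a lower bound. The 49 tested members without exonic overlap had a median of 0.26 on the log2 scale, and 7 were called. The 39 with overlap had a median of 0.24, and 7 were called. The share called higher was 14.3% without and 17.9% with overlap, against 1.92% of all tested genes. All 25 members with a mean over 1000 TPM had a log2 fold change above 0 (median 0.27, 5 called). The 37 members from 300 to 1000 TPM had a median of 0.26 (5 called), and the 26 members under 300 TPM had a median of 0.11 (4 called). The last class holds most of the paralogs, and the classes were not compared by a test.

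The ribosome also holds the products of *Rack1* and *Fau*, whose symbols the rule does not match. *Rack1*, a scaffold on the small subunit, was at 438, 462 and 393 TPM in control KD and at 593, 524 and 554 TPM in *Yy1* KD (log2 fold change 0.37, limma adjusted p = 0.0571). *Fau*, which encodes a small subunit protein fused to a relative of ubiquitin, had a log2 fold change of 0.17 (limma adjusted p = 0.305). Of all tested genes limma called 1.92% higher and 4.20% lower. Of 17 other genes of translation and growth whose mRNAs also carry a pyrimidine tract, 3 (17.6%) were called higher and 0 lower by limma, with a median of 0.17 (5 higher and 1 lower at an unadjusted p under 0.05, 5 and 0 by limma-voom). One of the 3 was *Eef2*, the elongation factor that moves the ribosome along the mRNA, at 1913, 2139.7 and 2072 TPM against 2834, 2697 and 2750.2 TPM (0.44, limma adjusted p = 0.0301). The others were *Eef1d* (0.44, limma adjusted p = 0.0211) and *Naca*, which binds new chains at the tunnel exit (0.41, limma adjusted p = 0.0358). Of 26 factors that assemble the subunits 1 was called higher (3.85%) and 1 lower, against 1.92% and 4.20% of all tested genes. Their median was 0.04. At an unadjusted limma p under 0.05, 6 were higher and 4 lower, and limma-voom called 3 and 1. Without overlap between the groups, 8 were higher (30.8%) and 4 lower, against 12.9% and 17.2% of all tested genes. Of the genes with a mean of at least 100 TPM, 24.8% were higher without overlap. *Wdr12*, a partner of *Pes1* and *Bop1* in the large subunit precursor, was at 30.4, 26.3 and 27.5 TPM against 40.3, 38.4 and 41.0 TPM (0.49, limma adjusted p = 0.0322). *Rpf2*, which brings *Rpl5*, *Rpl11* and the 5S RNA into the precursor, was at 58.9, 57.8 and 55.9 TPM against 34.6, 38.7 and 36.3 TPM (-0.64, limma adjusted p = 0.0127), the opposite direction to its 2 protein partners.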

How the data were processed

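RNA-seq was performed on 3 control KD and 3 *Yy1* KD libraries, grouped by their labels. The authors trimmed reads with Trim Galore (version 0.6.7), aligned them to mm10 with HISAT2 (version 2.2.1), removed ribosomal RNA with bedtools, assigned pairs to GENCODE vM25 genes with featureCounts (version 2.0.1; pairs over several genes at one place divided, strand ignored, pairs with several alignments not stated as counted) and deposited TPM, which was used as it was. The authors' test was edgeR on counts; TPM is no count, so limma (version 3.58.1, R 4.3.3, with a variance trend) was fitted to log2(TPM + 1). Fold changes on this scale understate those of low genes.

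Tested genes reached 1 TPM in 3 or more of the 6 libraries; two-sided p-values were adjusted over all of them (Benjamini-Hochberg), with a threshold of 0.05. The test was checked on simulated data. Single values were compared by exact permutation tests. GENCODE vM21 (GRCm38) gave coordinates, lengths, overlaps and the 100-nt windows of transcripts that other genes' transcripts also hold. RefSeq (GRCm38.p6) gave promoters. Other steps ran in Python 3.11.15 (matplotlib 3.10.9 for figures, scipy 1.17.1, numpy 2.4.6, pandas 2.3.3).

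The members and lists were chosen with earlier results of these data known. Genes named are the called members, both genes of each paralog pair, the 3 highest by TPM and 3 lowest by fold change in each subunit, the role groups, *Yy1*, *Fau*, *Rack1* and called genes of the other lists; *Rpl6l*, *Rpl32l* and *Rps12l1* were added as paralogs, *Rps19* as a gene near the threshold, *Rps15a* for its promoter and the pseudogenes after their values were seen. The results of some genes that this rule names are not reported here. Alternatives were a pseudocount of 0.1, no filter, a mean of at least 5 TPM, median-ratio scaling, quantile normalization, genes of at least 200 nt, limma-voom on recovered read pairs with median-ratio factors, a loess correction for GC content and length (span 0.5), each library left out in turn and the replicate number as a block.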

Additional observations from a re-analysis of the deposited data

How the results depend on the processing

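The direction of the members as a whole held in every setting: the median log2 fold change was 0.16 after quantile normalization (small subunit 0.13) and between 0.22 and 0.30 in the other settings with all libraries, and no member was called lower in any. The number called higher varied, from 14 (10 large, 4 small) to 46 with limma-voom (30 and 16), 16 large subunit genes at a mean of at least 5 TPM, 4 after quantile normalization (3 and 1), 2 with no filter (2 and 0) and 2 with the replicate block (2 and 0). With 1 library left out it was 0 to 3, all of the large subunit and 0 of the small, the fewest without control KD 3, and the small subunit median was between 0.15, without the same pool, and 0.26. *Rpl7l1* was called in 5 of 6 fits with a library left out, and *Rpl34* and *Rpl23a* in 2 of 6. Each of the other 11 was called in 0 of 6. The smaller number of libraries and the pool left out cannot be told apart here, and the cause was not tested. For deviations from the group means, the correlation of same-numbered libraries was -0.004, 0.03 and 0.07. Between libraries of unlike number it ranged from -0.07 to 0.04. With 3 libraries per group these values cannot decide whether the numbers pair the libraries. The block left *Rpl7l1* (limma adjusted p = 0.0447, in a range from 2.29e-04 to 0.0515 over all settings) and *Rpl34* (limma adjusted p = 0.0480, in a range from 6.74e-04 to 0.0668). Log2 fold changes near 0 turned: *Rpl36al* to -0.037 with the GC and length correction and -0.015 with genes of at least 200 nt, *Rps3a2* to -0.059 and -0.0066 with the same, *Rps27l* to 0.045 with limma-voom, 0.0087 with median-ratio scaling and 0.032 after quantile normalization, and *Rps3a3* to 0.023 after the last. With 1 library left out they ranged from -0.032 to 0.060 for *Rpl36al*, from -0.14 to 0.078 for *Rps27l*, from -0.27 to 0.21 for *Rps3a2*, from -0.22 to 0.092 for *Rps3a3* and from -0.078 to 0.20 for *Rpl32l*, and the differences in the log2 ratio of paralog to parent from -0.043 to 0.029 for *Rpl10l*, from -0.012 to 0.25 for *Rps27l* and from -0.013 to 0.035 for *Rpl6l*. The cause of these turns was not tested. With 3 pools per group the number of pools limits the precision.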
